A study of Mus musculus with 2 samples.

Results

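The genes described here are the ion channel subunits of the mouse lens transcriptome at embryonic stage E12.5. They were taken by gene symbol, as every probe whose symbol begins with that of a potassium channel (Kcn with a family letter), a voltage-gated calcium channel (Cacna, Cacnb, Cacng), a voltage-gated sodium channel (Scn), a CLC chloride channel or exchanger (Clcn), a TRP channel of the C, M or V group (Trpc, Trpm, Trpv) or a nicotinic acetylcholine receptor (Chrn). The rule used no measured value and gave 342 probes for 157 genes, out of 45281 probes on the array and 19057 genes with a named probe. It also took in 3 genes that are no channel subunit (Kcnq1ot1 and Kcnmb4os1, which are noncoding RNAs, and Trpc4ap, a TRPC-associated protein), and all 8 probes of these were below the detection floor. The symbol rule does not reach some channels, such as Kcnma1 and the Piezo genes, which are counted separately at the end.

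Total RNA of wild-type mouse lens at E12.5 was measured on a 1-colour Illumina array, with 1 array for the lens epithelium and 1 array for the lens fibers. Both samples carry the same label of stage and tissue and differ only in the lens part. The sources used here give neither the strain nor the method of dissection nor whether embryos were pooled. No array was repeated, so no test or error between replicates could be computed, and every difference below is one between these 2 arrays. In a bulk sample, fewer cells of a type and less RNA per cell cannot be told apart.

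The lens is a tissue without blood vessels whose cells live on an internal circulation of ions and water. Its epithelium, a single cell layer on the front surface, holds most of the pumps, while the elongating fibers behind it couple to it through gap junctions. Potassium channels set the resting voltage of such cells, calcium and TRP channels let in signalling cations, and CLC proteins move chloride across the surface and across endosomal membranes. Nicotinic acetylcholine receptors are pentameric cation channels opened by acetylcholine, known from the neuromuscular junction and from neurons.

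A gene is called detected on an array when its intensity lay above a floor set by genes with no known use in lens, such as olfactory receptors (95th percentile over 1580 such probes, which cover 1308 genes, called silent below). The floor was 44.5 in epithelium and 32.0 in fibers. Intensities are quantile normalized, on a linear scale, and each gene is represented by the brightest of its probes. Where a gene was detected on both arrays, the log2 ratio of fibers over epithelium is given. Where it was detected on 1 array alone, the bright value was divided by the floor of the other array, which gives a lower bound ("at least N-fold") whose direction is fixed by the array that detected it. If that quotient was under 1, no direction is given and the value enters a median as 0.

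The lens markers differed in the direction of the labels. All 7 fiber markers on the array were 2-fold or more higher in fibers, with a summed intensity of 3972.5 in epithelium and 30634.5 in fibers. Sums here and below take negative values as 0. Mip alone read 3206.5 and 19878, most of both sums. In epithelium it was brighter than any epithelium marker (Cdh1, the highest, read 854.5). Cryaa, Crygc, Crybb1 and Grifin were also detected in epithelium, at 275.5, 206.5, 183.5 and 77.5. Whether fiber RNA entered the epithelium sample was not tested. Of 6 epithelium markers, 5 were 2-fold or more higher in epithelium (summed 1956.5 and 420). Foxe3, the remaining epithelium marker, was not detected. Housekeeping genes were not level by their brightest probes. Of 19 detected, 8 were 2-fold or more higher in fibers and none in epithelium, with a median log2 ratio of 0.83. The shares over all detected genes were 15.6% and 19.0%. Probes of 1 gene could differ: another Chmp2a probe read 79.5 and 23, towards epithelium. Other Psmb2 probes read 188 and 189, and 58.5 and 178. Scaling the arrays to the housekeeping genes moves the median of all genes by -0.57. A loess fit of the ratio on intensity moves that median by 0.17.

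Most ion channel genes gave no signal above background. Of the 157 genes, 33 (21.0%) were detected on at least 1 array, against 33.9% of all genes and 9.25% of the silent genes that set the floor. Of the 33 detected genes, 12 were detected on both arrays, 11 in fibers alone and 10 in epithelium alone. The 246 probes of the other 124 genes had medians of 2 in epithelium and 1 in fibers, and none exceeded 40.5 or 30. At 2-fold or more, 5 of the 33 were higher in fibers (15.2%) and 10 in epithelium (30.3%), against 15.6% and 19.0% of all 6451 detected genes, and 4.96% and 25.6% of the 121 detected silent genes. The fiber share thus lies at the background over all genes, while the epithelium share lies above that of all genes and near that of the silent genes. Scaled to housekeeping genes, the split was 2 and 19, beside 4.63% and 42.5% of all detected genes. After the loess fit it was 6 and 6, beside 20.1% and 14.0%. All genes thus moved in the same direction as the channels under both settings.

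Of the 15 genes past 2-fold, 5 were detected on both arrays, and all 5 of them (Kcnk10, Scn3b, Cacna1d, Trpm3 and Kcnj6) were higher in epithelium. All 5 genes higher in fibers (Chrng, Cacna1e, Chrna4, Kcnn4 and Scn11a) rest on bounds. Scaled to housekeeping genes, Chrng (log2 bound 4.28) and Cacna1e (1.13) stayed past 2-fold, while Chrna4 (0.95), Kcnn4 (0.31) and Scn11a (0.22) did not. The median log2 ratio of the 33 detected genes was -0.64, against 0.00 over all detected genes and -0.49 over the detected silent genes. It was -0.21 after the loess fit, -0.06 with RefSeq probes alone, and 0.00 with the second brightest probe or with no floor, so no shift of the channels as a group is read from it. Over the 12 channel genes detected on both arrays, 10 had a negative log2 ratio, with a median of -0.84. Over all 2986 genes detected on both arrays, 57.3% were negative, with a median of -0.19. Of those 10 channel genes, Kcnh6, Kcnk10, Kcnq3, Scn3b and Trpm7 fell below the floor with RefSeq probes alone. Kcne1 (-0.06) turned positive after the loess fit (0.31). No shift is read from this count either.

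**Figure D1:**
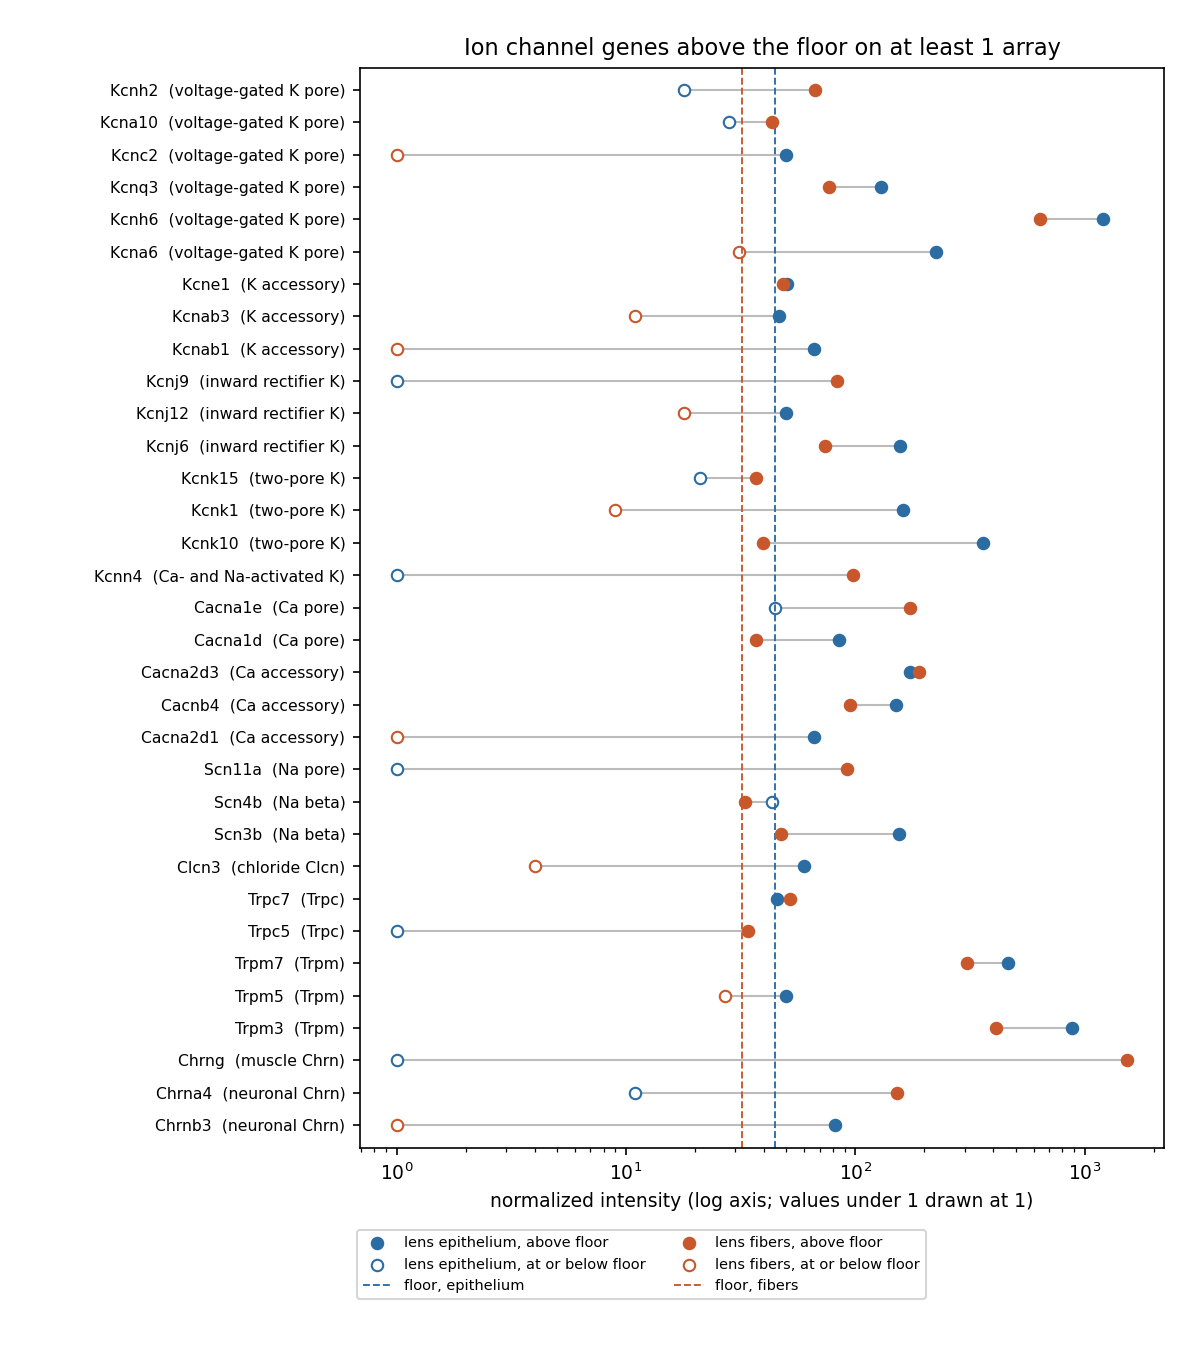
Normalized intensity (log axis) of the 33 detected ion channel genes on the epithelium array (blue) and the fibers array (orange), 1 brightest probe per gene; open points lie at or below that array's floor (dashed lines), and values under 1 are drawn at 1. Chrng spans the widest gap, from -3 in epithelium to 1535.5 in fibers, whereas Kcnh6, Trpm3 and Trpm7 are well above both floors and brighter in epithelium.

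The acetylcholine receptor gave the widest difference among the channels. Chrng encodes the gamma subunit, which belongs to the fetal muscle-type receptor and is replaced by the epsilon subunit (Chrne) as muscle matures. The intensity of its brighter probe (ILMN_2707570) was -3 on the epithelium array against 1535.5 on the fibers array. For the other probe (ILMN_1213304) the values were 0 and 314.5. Both probes were thus at background in epithelium and bright in fibers, with bounds of 34.5-fold and 7.07-fold. The first bound was the largest value in favour of fibers among all 6451 detected genes (log2 5.11). With the second brightest probe of every gene it ranked 9, and with a floor at the 99th percentile of the silent probes it ranked 2.

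The 4 other subunits of the muscle-type receptor were not detected. Chrna1, the ligand-binding alpha subunit, read between -7 and -1 over its 3 probes on both arrays. Chrnb1, the beta subunit, read 17 and 15 in epithelium and 10 and 20 in fibers. Chrnd, the delta subunit, read 6 and 0 in epithelium and -4 and 0 in fibers. Chrne, the adult epsilon subunit, read 7 in epithelium and 8 in fibers. Of the 5 genes that build the muscle receptor, Chrng alone gave signal above the floor, and that signal was in fibers.

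Markers of skeletal muscle, which moves the eye and uses this receptor, were at background. None of 14 muscle markers on the array was detected on either array, and their summed intensity was 112 in epithelium and 115 in fibers. Mylpf, a myosin light chain and the brightest of them in epithelium, read 29 and 26, and Des, desmin, the brightest in fibers, read 22 and 28. Myog, a muscle differentiation factor, read 26 and 20, and Myod1, Acta1, Actc1 and Tnnt3 had values from -8 to 3. Chrng therefore differed between arrays on which muscle markers were at background.

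**Figure D2:**
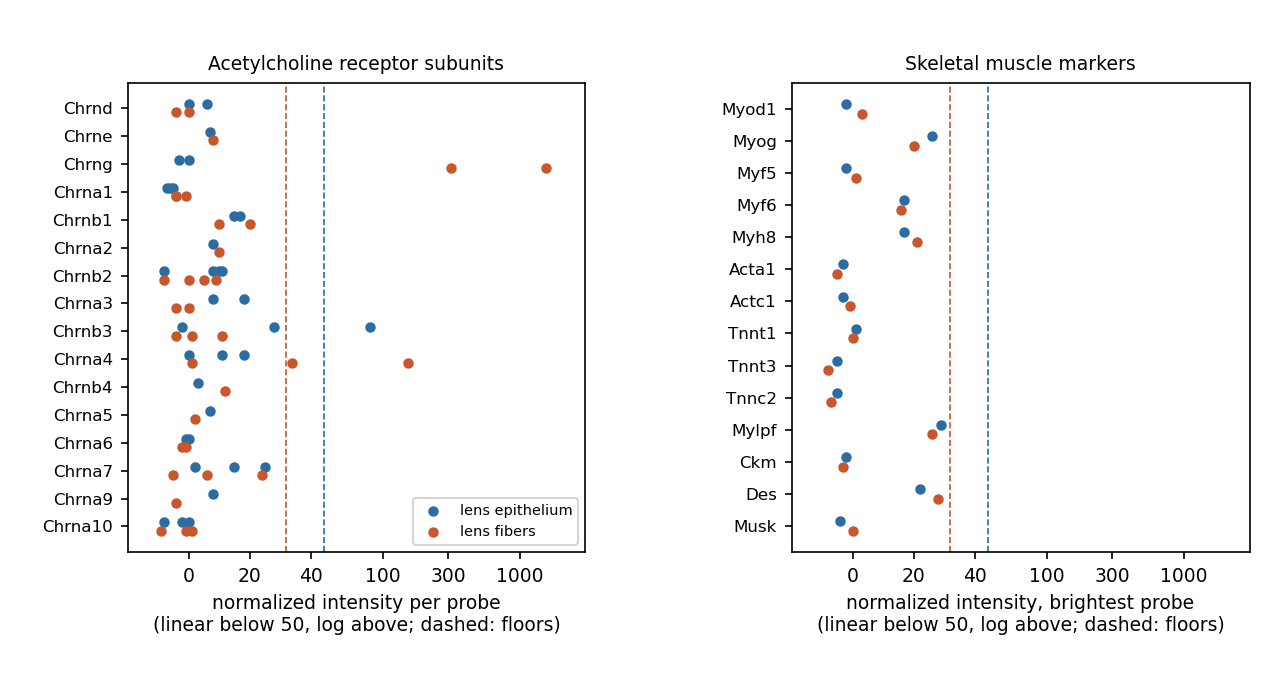
Left, normalized intensity of every probe of the 16 acetylcholine receptor subunit genes; right, the brightest probe of each of 14 skeletal muscle markers; epithelium in blue, fibers in orange, dashed lines the floors, axis linear below 50 and logarithmic above. The 2 fibers points of Chrng at 314.5 and 1535.5 stand alone, Chrna4 (fibers) and Chrnb3 (epithelium) pass a floor, and no muscle marker does.

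The upstream sequences of the muscle-type subunit genes are shown because only 1 of these otherwise co-assembled subunits gave signal, and because these genes are known to be switched on in muscle through E-boxes, sites of the form CANNTG. The 250 bases before the annotated start are taken from RefSeq (GRCm38.p6) and read 5′ to 3′ in the direction of the gene, with every CANNTG in capitals. The motif is its own reverse complement in form, so both strands are covered.
Chrng, chr1:87205561-87205810, plus strand: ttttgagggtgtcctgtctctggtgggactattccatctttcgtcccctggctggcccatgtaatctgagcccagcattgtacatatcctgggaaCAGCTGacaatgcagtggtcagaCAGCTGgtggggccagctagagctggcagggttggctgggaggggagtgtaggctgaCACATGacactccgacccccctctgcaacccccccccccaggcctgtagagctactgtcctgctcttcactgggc
Chrna1, chr2:73580339-73580588, minus strand: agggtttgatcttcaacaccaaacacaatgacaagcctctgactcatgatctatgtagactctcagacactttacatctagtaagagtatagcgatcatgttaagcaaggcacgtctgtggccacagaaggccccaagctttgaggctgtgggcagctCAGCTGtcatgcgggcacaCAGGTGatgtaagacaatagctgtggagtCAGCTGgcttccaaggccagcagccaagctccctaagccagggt
Chrnb1, chr11:69795938-69796187, minus strand: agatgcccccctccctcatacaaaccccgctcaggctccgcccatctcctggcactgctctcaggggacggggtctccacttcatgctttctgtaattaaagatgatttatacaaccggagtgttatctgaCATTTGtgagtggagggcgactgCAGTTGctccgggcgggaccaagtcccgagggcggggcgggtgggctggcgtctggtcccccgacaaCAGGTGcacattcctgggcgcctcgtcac
Chrne, chr11:70619195-70619444, minus strand: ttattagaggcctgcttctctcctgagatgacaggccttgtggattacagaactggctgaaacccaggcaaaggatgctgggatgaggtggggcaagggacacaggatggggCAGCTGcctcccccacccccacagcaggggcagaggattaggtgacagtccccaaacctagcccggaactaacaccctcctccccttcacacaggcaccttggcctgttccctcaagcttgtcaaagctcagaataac
All 4 windows end at the base before the annotated start of their gene. The source of these sequences had no entry for Chrnd, so Chrnd is not part of the comparison.

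The Chrng window holds 3 CANNTG sites, starting 155, 132 and 75 bases upstream of the start, and the first and second of these are CAGCTG, one of the forms known for myogenic factors. Chrna1 also holds 3, with CAGCTG at 92 and 44 bases. Chrnb1 holds 3 sites and no CAGCTG, and Chrne holds 1, a CAGCTG at 138 bases. Of all 32851 windows of the same length, 66.2% hold at least 1 CANNTG, 13.0% at least 1 CAGCTG and 1.26% at least 2. Chrng and Chrna1 share the rarer arrangement of 2 CAGCTG sites, but Chrna1 was not detected on either array. These matches describe the letters of the windows and are no evidence of binding.

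Chrng lies between Chrnd and Eif4e2 among the protein-coding genes of its chromosome. Of its 6 nearest protein-coding neighbours in the RefSeq gene table, 3 on each side, Prss56, Chrnd, Efhd1 and Gigyf2 were not detected, with the highest value at 19. Ecel1, an endopeptidase-like gene, read 66 in epithelium and 21 in fibers. Eif4e2, a cap-binding protein, gave discordant probes, 19 and 94 on one and 62.5 and 23 on another. These neighbours were chosen after the values of Chrng were seen, and none was bright in fibers as Chrng was.

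Of the 11 neuronal-type subunits, 2 were detected, 1 in each direction. Chrna4, which forms the main high-affinity receptor of the brain together with Chrnb2, read 11 in epithelium and 152.5 in fibers, at least 3.43-fold higher in fibers. Of its other 2 probes, 1 read 18 and 34, just above the fiber floor and with no direction, and 1 read 0 and 1. Chrnb3, an accessory subunit, read 81.5 in epithelium and 1 in fibers, at least 2.55-fold higher in epithelium, while both other probes of Chrnb3 lay below the floor. Chrnb2, the partner of Chrna4, was not detected.

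No detected partner of the receptor was higher in fibers. Of 18 listed partners on the array (synthesis and breakdown of acetylcholine, muscarinic receptors, clustering proteins), 3 were detected. The detected share was 33.9% over all genes and 9.25% over the silent genes. All 3 were 2-fold or more higher in epithelium, as were 19.0% of all detected genes and 25.6% of the detected silent genes. Agrn, agrin, which is also a proteoglycan of the lens capsule, read 160.5 in epithelium and 19 in fibers (at least 5.02-fold). Chat, which makes acetylcholine, read 143.75 and 44.5 (3.23-fold), but its other 2 probes were not detected. Rapsn, which clusters the muscle receptor, read 64 and 1 (at least 2-fold), again with 2 probes not detected.

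Potassium channels were the largest group, and 11 of the 16 detected (68.8%) had a negative log2 ratio or bound, against 44.5% of all detected genes and 61.2% of the detected silent genes. The unequal floors tilt such counts: a gene detected in epithelium alone is always at least 1.39-fold, while 1 detected in fibers alone below 44.5 has no direction, as was the case for all 4 channels without one. Among 35 pore-forming subunits of the voltage-gated type, 6 were detected, of which 1 passed 2-fold, towards epithelium. Kcna6, a Shaker-type delayed rectifier, read 225.5 in epithelium and 31 in fibers, just under the fiber floor, and was at least 7.05-fold higher in epithelium. Its other probes, from -12 to 9 on both arrays, were at background. Kcnh6, an ether-a-go-go related channel, read 1201.5 and 640.5 (log2 ratio -0.91), and Kcnq3, a subunit of the M-current, read 130 and 76.5 (-0.77).

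The other 3 voltage-gated genes were each detected on 1 array alone and did not reach 2-fold. Kcnc2, a fast delayed rectifier of the Shaw type, read 50 in epithelium and 0 in fibers, at least 1.56-fold higher in epithelium. Kcnh2, the HERG channel of cardiac repolarization, read 18 and 67, at least 1.51-fold higher in fibers. A second Kcnh2 probe read 14 and 40.5. Kcna10 read 28 and 43.5 and had no direction. Of 11 accessory subunits, 3 were detected: Kcnab1, a beta subunit, read 66 in epithelium and -4 in fibers (at least 2.06-fold), Kcnab3 read 46.5 and 11 (at least 1.45-fold), and Kcne1 read 50.5 and 48.5. Kcne1 was the only one of these on both arrays, at a log2 ratio of -0.06 that turned to a positive value after the loess fit.

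The K2P channels, which carry the background potassium leak, held the lowest log2 ratio of all the channels. Of 14 genes, 3 were detected, and 2 of these passed 2-fold, towards epithelium. Kcnk10, the TREK-type channel opened by stretch and lipids, had an intensity of 360.5 in epithelium against 39.5 in fibers (9.13-fold, log2 ratio -3.19). Kcnk1, the TWIK-type channel, read 161 in epithelium and 9 in fibers, at least 5.03-fold higher in epithelium. Kcnk15 read 21 and 37 and had no direction. For both Kcnk10 and Kcnk1 the signal came from 1 probe, and the other 3 probes of the pair, at -10 to 10, were at background on both arrays.

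Inward rectifiers and calcium-activated channels were sparse. Of 13 inward rectifiers 3 were detected. Kcnj6, the G protein-gated channel GIRK2, read 156 in epithelium and 74 in fibers (2.11-fold), while Kcnj9, its relative GIRK3, read -5 and 83.5, at least 1.88-fold higher in fibers. Kcnj12, of the strong inward rectifier type, read 50 and 18, at least 1.56-fold higher in epithelium. Of 7 calcium- or sodium-activated channels, Kcnn4, the intermediate-conductance channel opened by calmodulin, was detected, at 1 in epithelium and 98 in fibers (at least 2.20-fold higher in fibers). It has 1 probe on the array.

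**Figure D3:**
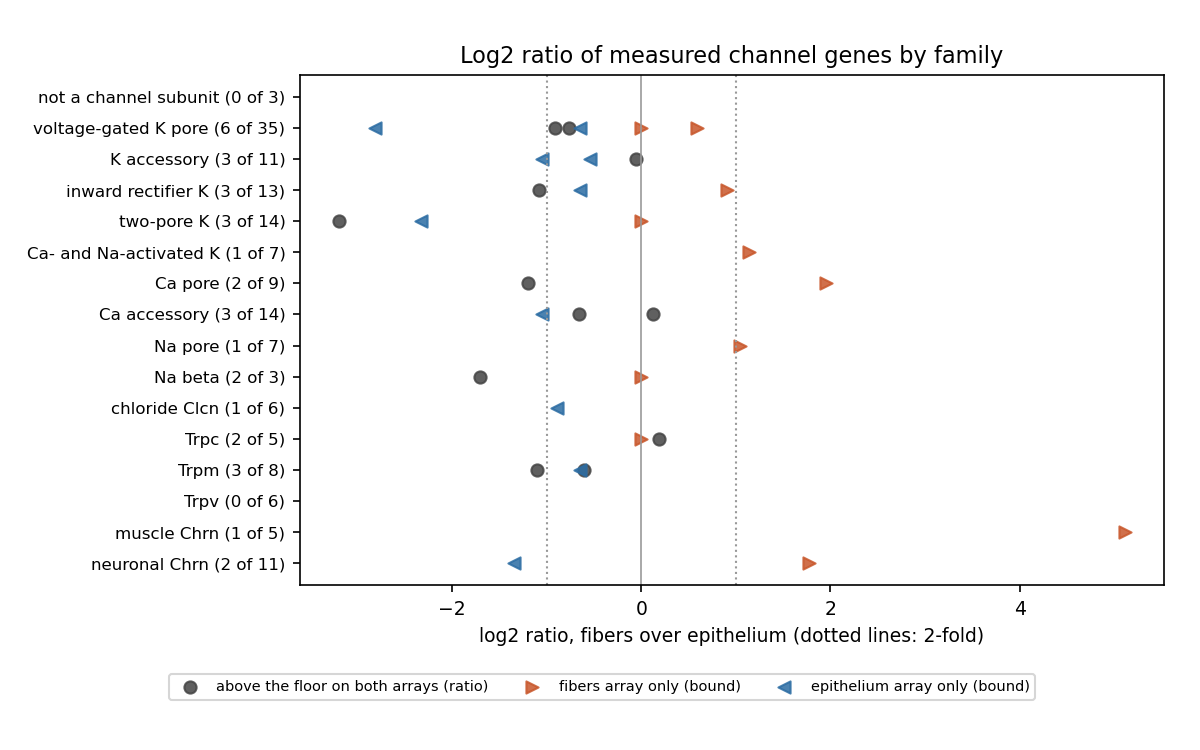
Log2 ratio of fibers over epithelium for each of the 33 detected genes, by channel family, with the number detected of the number on the array; circles are ratios, triangles are bounds that point in the direction of the difference, and dotted lines mark 2-fold. The K2P family reaches -3.19, Chrng reaches 5.11, and no Trpv gene was detected.

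Calcium channel subunits went both ways. Of 9 pore-forming subunits 2 were detected. Cacna1d, the L-type channel CaV1.3, read 84.5 in epithelium and 37 in fibers (2.28-fold higher in epithelium), although its second detected probe read 4 and 33. Cacna1e, the R-type channel, read 44.5 in epithelium, exactly at the floor, and 172.5 in fibers, at least 3.88-fold higher in fibers, with a second probe at -1 and -2.

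Among 14 accessory calcium channel subunits 3 were detected. Cacna2d3, an extracellular alpha2delta subunit, read 173.5 and 189 (log2 ratio 0.12, which was -0.70 when scaled to housekeeping genes). Cacnb4, a cytoplasmic beta subunit, read 150 and 95 (-0.66), with its 3 other probes below the floor. Cacna2d1 read 66 in epithelium and -6 in fibers (at least 2.06-fold higher in epithelium). None of the 8 Cacng genes was detected.

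Voltage-gated sodium channels were at background save for 3 genes. Scn3b, an auxiliary beta subunit, read 155 in epithelium and 47.5 in fibers (3.26-fold), with 3 other probes from -3 to 5. Scn4b read 43.5 and 33 and had no direction. Of 7 pore-forming subunits Scn11a alone was detected, at -5 and 92 (at least 2.07-fold higher in fibers), on its single probe. It is the persistent sodium channel of pain-sensing neurons.

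Chloride channels of the CLC family were nearly silent on these arrays. Of 6 genes Clcn3, an endosomal chloride and proton exchanger, was detected, at 59.5 in epithelium and 4 in fibers on 1 of 5 probes (at least 1.86-fold higher in epithelium). The other Clcn genes, with the surface channels Clcn1 and Clcn2 and the lysosomal exchanger Clcn7 among them, read 25 or less.

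Among TRPM channels the signal of Trpm3 was seen by the most probes. Trpm3, a steroid- and heat-sensitive cation channel whose gene also hosts the microRNA gene Mir204, was detected by all 7 of its probes. Intensities in epithelium and fibers were 879 and 409.75 for the brightest (ILMN_3098069, 2.15-fold), 769 and 346 for another (ILMN_2462222, 2.22-fold), and 296.5 and 86.5 for another (ILMN_1247907, 3.43-fold). These 3 probes were each more than 2-fold higher in epithelium. Another 2 probes were near level, at 109.5 and 97 and at 67 and 52, and the last 2 were detected in fibers alone, at 35 and 85.5 and at 27 and 68. The median log2 ratio over the 7 probes was -0.37, so the size and direction differed between probes.

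Trpm7, a channel fused to a kinase and known for magnesium uptake, read 465 in epithelium and 306 in fibers (log2 ratio -0.60), but its 2 other probes were below the floor. Trpm5, the taste cell channel, read 50 and 27 (at least 1.56-fold higher in epithelium). Among 5 Trpc genes, Trpc7 read 45.5 and 52 (0.19, which was -0.63 when scaled to housekeeping genes) and Trpc5 read -6 and 34, with no direction. None of the 6 Trpv genes was detected. Trpv4, which senses swelling in many tissues, read 14, 4 and 3 in epithelium and 15, 3 and 8 in fibers, and Trpv1, the capsaicin receptor, read -6 to 5.

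**Figure D4:**
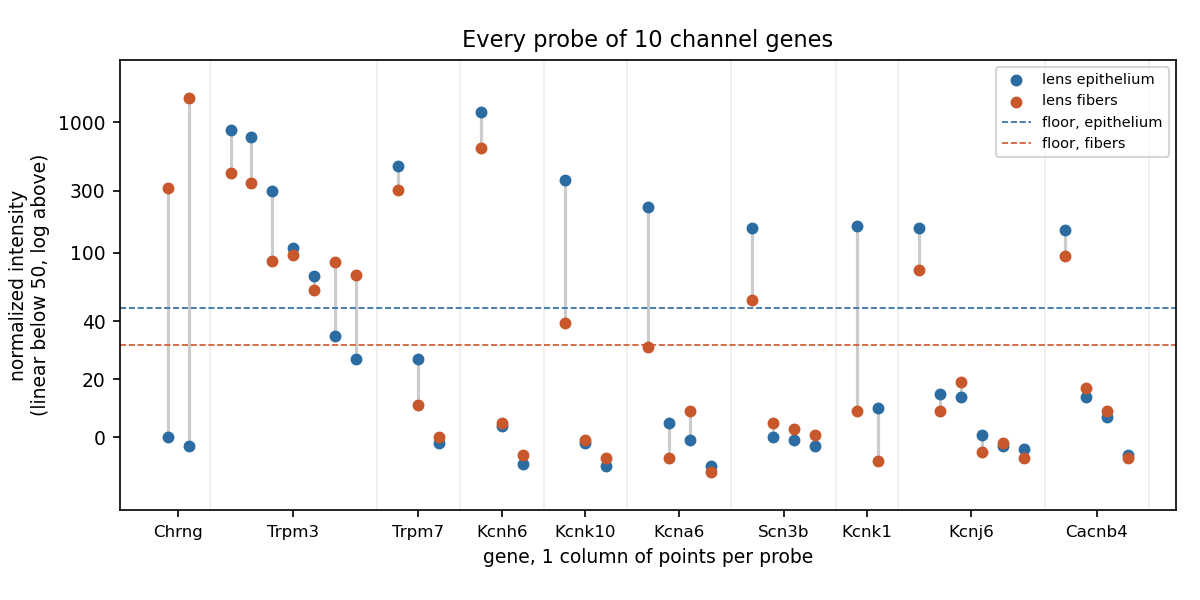
Normalized intensity of every probe of 10 channel genes on both arrays (epithelium blue, fibers orange, grey lines join the arrays; dashed lines are the floors; axis linear below 50 and logarithmic above). Chrng and Trpm3 are detected by all of their probes, whereas in the other 8 genes 1 probe carries the signal and the rest lie at background.

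Support by more than 1 probe was rare. Of the 27 detected genes with several probes, 21 were detected by 1 probe alone, and Chrng and Trpm3 were the only genes detected by every probe. They were also the only genes with more than 1 probe past 2-fold in the same direction. In 8 of the 33 genes, Kcnh6, Kcnk10, Scn3b and Trpm7 among them, the brightest probe is paired by the platform annotation with a cDNA clone record and not with a RefSeq transcript, a class that makes up 48 of the 342 channel probes. With RefSeq probes alone, 25 channel genes were detected, and Kcnk10, Kcnh6, Scn3b and Trpm7 were below the floor. Kcna6, Kcnk1 and Trpm3 rest on RefSeq probes, but Kcna6 and Kcnk1 on 1 probe each. Their other probes are RefSeq as well and were at background, from -12 to 9 for Kcna6 and at 10 and -8 for Kcnk1.

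The spread available on these arrays bears on the smaller values. Probes of the same gene, both detected on both arrays, differed with an SD of 0.74 in log2 ratio (1038 probes of 472 genes), and 32 silent probes above both floors had an SD of 0.84 with a largest absolute value of 2.36. The detected silent genes, bounds included, ran from -2.91 to 3.39. Chrng at 5.11 and Kcnk10 at -3.19 lay outside that range, and all other channels lay inside it. Above the stricter floor (110.5 in epithelium and 80.7 in fibers), 17 channel genes remained, and the calls kept at 2-fold were Chrng in fibers and Kcnk10, Kcna6 and Trpm3 in epithelium.

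Of 59 genes of channels and channel-associated proteins outside the symbol rule, 16 were detected, beside 33.9% of all genes and 9.25% of the silent genes. Among these 16, 1 was past 2-fold towards fibers and 4 towards epithelium (median log2 ratio 0.00), beside 15.6% and 19.0% of all detected genes. Ryr1, a calcium release channel, read 169.5 in epithelium and 33 in fibers (5.14-fold), Stim1, the calcium sensor of store-operated entry, read 97 and 32 (at least 3.03-fold), and Lrrc8a, of the volume-regulated anion channel, read 73 and 8 (at least 2.28-fold). Piezo2, a stretch-activated channel, read 146.5 and 68 (2.15-fold). Each of these was carried by 1 probe. Clic4, an intracellular chloride channel protein, read 52.5 and 119.5 (2.28-fold higher in fibers), but a second probe read 102 and -1. Of 21 GABA, glycine, serotonin and glutamate receptor subunits, 7 were detected, beside the same 33.9% of all genes. None of the 7 reached 2-fold, beside 15.6% of all detected genes towards fibers and 19.0% towards epithelium. Gabra4, Glra1 and Grik2 had no direction. Gabrb2 at 57.5 and -1 and Gabrg3 at 57 and -10 had the widest differences.

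Neurons express many of these channels, and most of the listed neuron markers were below the floors. Of 10 neuron markers 2 were detected, with a summed intensity of 335.5 in epithelium and 142.5 in fibers. For this list and those that follow, the detected share was 33.9% over all genes and 9.25% over the silent genes. Elavl3, a neuronal RNA-binding protein, read 213 and 78 (2.73-fold higher in epithelium) on 1 of 3 probes, and Map2 had no direction. Of 5 retina markers Sfrp2 alone was detected (1256 and 139.5), and of 7 periocular mesenchyme markers Tfap2b alone (208.5 and 36). These genes were higher in epithelium, and all other markers of both lists were below the floors. Summed intensities were 1297.5 in epithelium and 159.5 in fibers for retina, and 251.5 and 53 for periocular mesenchyme. Each sum rests mostly on its 1 detected gene, and markers below the floors give no direction. Endothelium (summed 54 and 111.5), erythroid (141.5 and 212.5) and pigment cell markers (140.5 and 37) were low, with 1 of 6, 2 of 4 and 1 of 5 detected. The part of these cells in the channel values was not tested.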

How the data were processed

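For each array the deposited table of the authors holds whole-number intensities that are not logged. They reach down to -16, and 38.0% (epithelium) and 38.7% (fibers) of them do not exceed 0, as after background subtraction. The sources used here name neither the software nor the background method nor any scaling. Values were quantile normalized with limma 3.58.1 because some positive percentiles of the arrays differed by over 0.1 on the log2 scale. These were 4 percentiles between 45 and 66, at intensities of 14 or less, where the arrays differed by 1 unit, and the values as deposited gave the same counts. Quantile normalization hides any difference in total RNA. Probes were named through the platform annotation, by 1 gene symbol (34885 probes; 18 had several and 10378 none). The gene IDs of all 157 members were found in the reference gene table. Probe sequences were not used. The number of arrays limits the precision, and no test was possible. The scripts were tested on simulated data.

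Named genes were those past 2-fold, detected on both arrays, brightest in a family, or with probes past 2-fold in opposite directions, and all muscle receptor subunits; every other channel, and the markers not detected, were added after its values were seen. From other lists up to 4 detected genes with the largest absolute log2 ratio were to be named, and Piezo2 and Mip were added beyond that limit. The members and lists were chosen with earlier results of these data known. In all, 9 alternatives were planned, and 1, RefSeq probes alone, was added after the data were seen.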

Additional observations from a re-analysis of the deposited data

How the results depend on the processing

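A value was counted as kept when it moved by less than 0.74, the SD between probes of a gene, and a count when it stayed within 1.5 times. The number of detected channel genes (33) was 17 with the floor at the 99th percentile, 18 with the mean of all probes and 6 with the second brightest probe. The count higher in epithelium (10) was 6 with the loess fit, with a common floor and with RefSeq probes alone, 19 when scaled to housekeeping genes, 4 at 3-fold, 3 at the 99th percentile floor, 2 with the mean of probes and 1 with the second brightest probe. The count higher in fibers (5) was 3 at 3-fold and with the mean of probes, 2 when scaled to housekeeping genes, and 1 at the 99th percentile floor and with the second brightest probe. Family medians rest on 3 to 6 genes, and several went close to 0 within this tolerance: voltage-gated potassium channels from -0.70 to -0.03 with no floor and 0.00 with the second brightest probe; accessory potassium subunits from -0.54 to -0.06 with a common floor, -0.09 with loess and 0.03 with no floor; inward rectifiers from -0.64 to -0.17, -0.21 and -0.11 under the same settings; accessory calcium subunits from -0.66 to -0.27 with RefSeq probes and 0.00 with no floor; and Trpm from -0.64 to -0.27 with no floor. Scaling to housekeeping genes shifted every median down, to -1.47 for all detected channels, for inward rectifiers and for Trpm, -1.53 for voltage-gated, -1.36 for accessory and -3.16 for K2P potassium channels, and -1.48 for accessory calcium channels, as its construction requires. The K2P median (-2.33) was also -1.58 at the 99th percentile floor, -1.17 with RefSeq probes and 0.00 with no floor, where log2(value + 50) of all 14 genes enters. The accessory calcium channel median was 0.12 with the mean of probes. Values as deposited changed no call. Of 227 recomputed values of named genes, 50 moved and no called one turned its sign. Chrng kept its call under all 9 alternatives that keep the 2-fold limit (log2 from 2.82 to 5.11), Trpm3 under 8, and Kcna6, Kcnk1 and Kcnk10 under 7. No paired analysis was possible because each group has 1 array. Genes within the floor's reach are limited by signal over background: a channel not detected here may still be expressed.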
